A study of Mus musculus with 24 samples.

Results

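The 54 genes described here encode proteins that make ribosomes in the nucleolus, among them subunits and initiation factors of RNA polymerase I (Pol I). They were taken from the expression tables by gene symbol. All 54 were found among the 41710 genes of each table, and all 54 passed the filter on low values in both. RNA had been sequenced from mouse embryonic fibroblasts (MEFs) of 4 genotypes, first as primary cells on day 10 and then after immortalization, with 3 libraries for each genotype in each state. WT cells had intact Myc and Mlx loci, MycKO cells had lost Myc, MlxKO cells had lost Mlx, and DKO cells had lost both. The lines were made from pools of embryos at embryonic day 14 to 16, carried floxed alleles of the genes to be removed, and also carried the ROSA26-CreER transgene, in which a ubiquitously active promoter drives a Cre recombinase that works only in the presence of 4OHT. Excision was induced with 500 nM 4OHT, the vehicle being ethanol, and the immortalized lines had in addition been transduced with a lentivirus encoding SV40 T-antigen and selected in blasticidin. The labels do not say which libraries received vehicle. WT cells were a floxed line whose loci had not been excised, and which line gave the sequenced WT libraries is not given in the sources used here. The knockouts came from separate lines, each a pool of embryos, so among the knockouts genotype and pool cannot be told apart. The same holds against WT, except for a knockout made from the line that gave WT. The labels give 500 nM 4OHT for the knockouts and no concentration for WT, and immortalized WT controls were kept in medium without 4OHT. In every comparison with WT, loss of a gene and exposure to 4OHT with active Cre therefore cannot be told apart. The labels name no separate animals behind the 3 libraries of a group, and the p-values given below measure the spread between libraries, which may be technical.

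Ribosome production begins in the nucleolus, where Pol I, with the factors Ubtf and Rrn3, transcribes the precursor of the large ribosomal RNAs. Small nucleolar ribonucleoproteins (snoRNPs) of the box C/D and H/ACA families then modify this precursor, and separate sets of assembly factors cleave and fold it into the small and the large subunit. Genes for these factors are among the best known targets of Myc, a transcription factor that binds E-box DNA together with Max, while Mlx is the partner of the MondoA, ChREBP and some Mxd proteins, whose binding sites overlap with those of Myc. The 54 genes were grouped by role into 5 for Pol I transcription, 8 for snoRNPs, 18 for the small subunit, 18 for the large subunit and 5 for general nucleolar proteins.

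Libraries held between 15986856 and 20966163 reads on genes, at which 3 reads correspond to between 0.145 and 0.196 CPM (counting error only), and no member came near this floor. The gene removed was lower in each primary knockout. Myc was at 100.1, 89.8 and 91.8 CPM in primary WT, at 25.8, 26.8 and 26.8 CPM in primary MycKO and at 21.6, 22.9 and 19.9 CPM in primary DKO libraries. Mlx was at 26.0, 20.5 and 24.5 CPM in primary WT, at 13, 13.5 and 14 CPM in primary MlxKO and at 11.8, 12.0 and 9.73 CPM in primary DKO libraries. In both cases the knockout libraries lay below all WT libraries, with a remainder that the counts per gene do not divide between deleted and retained exons. In immortalized cells Myc was at 17.2, 11 and 9.96 CPM in MycKO and at 8.02, 5.77 and 4.25 CPM in DKO libraries. Immortalized Mlx fell in MlxKO (log2 fold change -0.71, adjusted p = 0.00471, limma), but its value in DKO (-0.44, adjusted p = 0.0694) did not pass the threshold. Fibroblast markers such as Col1a1 and Vim were abundant in every library, summing to between 42650 and 58560 CPM in primary and between 18010 and 34560 CPM in immortalized cells, and skeletal muscle and erythroid markers were near 0 in primary cells. Most members overlap a gene annotated on the opposite strand, as Rrp9 does with Parp3 and Nhp2 with Rmnd5b. Nop56, Nop58, Ppan, Gnl3 and Ncl overlap genes annotated on the same strand, among them small RNA genes such as Snord57 in Nop56. Whether the counting used strand is not given in the sources used here, so reads of such pairs may be shared.

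A single library stood apart. The lowest correlation of log2(CPM + 1) between libraries of the immortalized WT group was 0.943, between libraries 2 and 3, against 0.983 in the next lowest group of either state. In immortalized WT library 3 the members summed to 6271 CPM, where the other immortalized WT libraries gave 3950 and 3749 CPM, and it exceeded both of them in 51 of the 54 members. In 37 members it was the highest of the 12 immortalized libraries. The ratio of library 3 to the mean of the other WT libraries had a median of 1.62 over the members, from 0.859 for Ubtf to 3.25 for Lyar. Myc itself was at 177.5 CPM in that library against 48.1 and 39.9 CPM in the others. The member counts of every immortalized comparison that uses WT are therefore given with and without library 3. All libraries were kept in the plot of the members by library, in which this library can be seen.

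**Figure D1:**
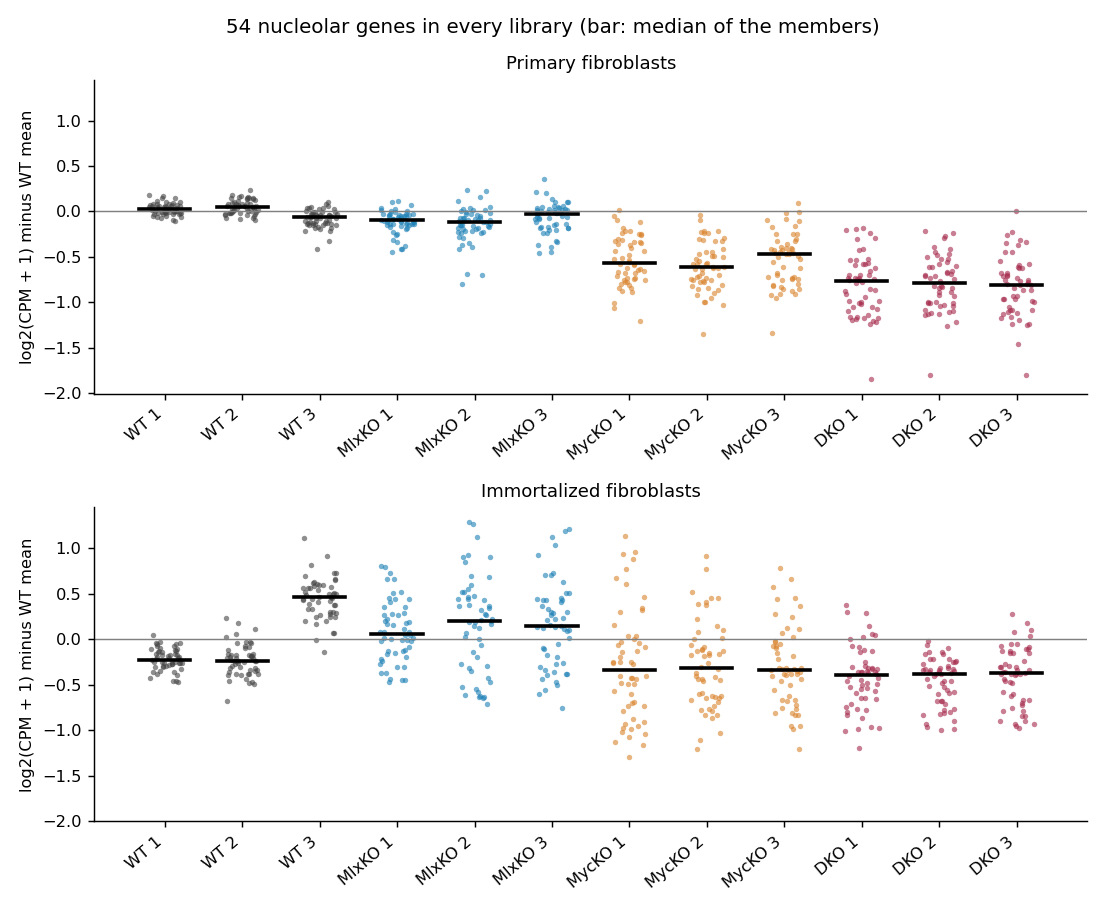
Values of the 54 members in each library as log2(CPM + 1) minus the mean of the 3 WT libraries of the same state (vertical axis), by library (horizontal axis), with 1 point per gene and a bar at the median. Primary MycKO and DKO libraries lie below the WT libraries, with medians from -0.465 to -0.615 and from -0.765 to -0.804, whereas immortalized WT library 3 lies at a median of 0.461 and the other immortalized WT libraries at -0.224 and -0.235.

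Promoter windows were read from RefSeq (GRCm38.p6) as 250 bases before and 50 bases after each annotated start. A window was found for 48 of the 54 genes, and none was used here for Fbl, Dcaf13, Rrp12, Bop1, Rrs1 and Npm1. The canonical E-box CACGTG, searched on both strands, stood in a window of 12 of the 48 genes (25%). Of the other genes tested in primary cells, 1183 of 10204 (11.6%) held it. Counted by window, it stood in 21.4% of the windows of the members and in 7.15% of all windows of the table. The variant CACGCG, whose letters cannot overlap with those of CACGTG, was found for 15 of the 48 genes (31.2%) and for 19.9% of the other genes tested. By window the shares were 28.6% for the members and 9.27% over all windows. A pair of these E-boxes set 5 bases apart was found for 0 of the 48 genes and in 0 of the 32851 windows of the table. By role, CACGTG was held by 1 of 5 Pol I genes, 0 of 7 snoRNP genes, 6 of 16 small subunit genes, 4 of 16 large subunit genes and 1 of 4 general nucleolar genes. Of its 13 matches in windows of the 54 genes, 9 lay downstream and 4 upstream of the start. A match is a description of the letters only. The windows of the 3 genes with CACGTG that had the largest fall in primary MycKO cells are printed 5′ to 3′ on the strand of the gene, with the motif in capitals. Grwd1 lies on the minus strand (chr7:45830740-45831039), and Wdr43 (chr17:71615965-71616264) and Mybbp1a (chr11:72441077-72441376) lie on the plus strand.
Grwd1: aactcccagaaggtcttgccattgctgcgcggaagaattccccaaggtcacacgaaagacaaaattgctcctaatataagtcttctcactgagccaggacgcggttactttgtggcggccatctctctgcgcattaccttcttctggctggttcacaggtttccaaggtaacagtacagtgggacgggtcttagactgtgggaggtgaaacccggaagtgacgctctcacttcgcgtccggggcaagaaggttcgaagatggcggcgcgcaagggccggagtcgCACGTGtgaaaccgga
Wdr43: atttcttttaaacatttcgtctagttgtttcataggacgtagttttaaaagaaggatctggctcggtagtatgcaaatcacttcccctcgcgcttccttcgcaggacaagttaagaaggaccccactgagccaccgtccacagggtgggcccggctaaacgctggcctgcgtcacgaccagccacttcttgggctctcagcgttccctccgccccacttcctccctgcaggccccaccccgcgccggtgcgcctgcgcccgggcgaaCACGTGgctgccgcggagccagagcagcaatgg
Mybbp1a: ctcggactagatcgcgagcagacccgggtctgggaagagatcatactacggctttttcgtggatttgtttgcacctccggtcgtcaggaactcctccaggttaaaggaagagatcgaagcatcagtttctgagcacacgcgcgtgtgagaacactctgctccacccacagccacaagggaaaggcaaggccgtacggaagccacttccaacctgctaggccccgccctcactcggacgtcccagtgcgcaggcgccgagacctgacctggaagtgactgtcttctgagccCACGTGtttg
The motif begins 34 bases after the start in Grwd1, 17 bases after it in Wdr43 and 40 bases after it in Mybbp1a. For contrast, the windows of Dkc1 (chrX:75095604-75095903, plus strand) and Polr1b (chr2:129100746-129101045, plus strand) are given, which had the largest falls among the genes with no CACGTG in the window.
Dkc1: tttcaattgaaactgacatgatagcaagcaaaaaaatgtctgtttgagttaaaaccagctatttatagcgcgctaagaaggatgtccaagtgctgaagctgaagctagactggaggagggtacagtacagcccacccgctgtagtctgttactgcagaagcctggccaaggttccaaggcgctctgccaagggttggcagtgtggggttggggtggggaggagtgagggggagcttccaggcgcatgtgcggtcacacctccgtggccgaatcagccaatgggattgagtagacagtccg
Polr1b: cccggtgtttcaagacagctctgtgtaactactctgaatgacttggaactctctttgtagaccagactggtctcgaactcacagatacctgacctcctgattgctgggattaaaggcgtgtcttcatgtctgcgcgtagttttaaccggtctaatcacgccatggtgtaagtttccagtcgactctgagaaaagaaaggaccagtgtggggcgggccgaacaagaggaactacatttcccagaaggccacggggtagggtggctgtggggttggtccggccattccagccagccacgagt
In primary MycKO cells the median log2 fold change against WT was -0.47 for the 12 genes with CACGTG and -0.62 for the 36 without it. The corresponding medians in DKO were -0.78 and -0.80, so both groups of members were lower, whether or not the letters were in the window. Other tested genes had medians of -0.0145 with and -0.00108 without the motif in MycKO cells.

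The first question was how loss of Myc alone altered these genes in primary cells. Levels were compared as log2(CPM + 1) with limma over all genes tested, and a gene was called at a Benjamini-Hochberg adjusted p under 0.05. In primary MycKO cells 47 of the 54 members were called lower than in WT and 0 higher, where 21.9% of the 13101 genes tested were called lower and 20.4% higher. The median log2 fold change of the members was -0.59, against 0.00 over all genes tested, and the median member stood at 66.0% of its WT mean. All 54 fold changes were below 0. Among the roles, 4 of 5 Pol I, 7 of 8 snoRNP, 14 of 18 small subunit, 17 of 18 large subunit and 5 of 5 general nucleolar genes were called lower.

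Pol I genes differed among themselves. Polr1b, the second largest subunit of the enzyme, was at 34.3, 36.6 and 33.1 CPM in primary WT and at 16, 18.5 and 18 CPM in MycKO libraries. The MycKO mean was 50.6% of WT, without overlap of the libraries, and the log2 fold change was -0.95 (SE 0.0842, adjusted p = 2.44e-07, limma). Ubtf, the factor that keeps ribosomal DNA open, was at 109.1, 108.6 and 97.2 CPM in WT and at 101.4, 83.4 and 103.4 CPM in MycKO libraries. Here the groups overlapped, and the log2 fold change of -0.13 did not pass the threshold (adjusted p = 0.192), although it did with library totals (-0.23, adjusted p = 0.0243) and with a correction for GC content and length (-0.23, adjusted p = 0.00512).

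Among the snoRNP genes the largest fall of all 54 was found. Dkc1, the pseudouridine synthase of the H/ACA particles, was at 47.9, 53.5 and 44.0 CPM in WT and at 20.5, 18.4 and 18.6 CPM in MycKO libraries. MycKO libraries were thus at 39.5% of WT on average, the only member under 50% (log2 fold change -1.29, SE 0.0930, adjusted p = 2.53e-08, limma). Nop56, a core protein of the box C/D particles, was at 148.2, 158.5 and 137.3 CPM in WT and at 80.1, 77.8 and 77.5 CPM in MycKO libraries. Its groups were also far apart relative to their spread (-0.90, SE 0.0650, adjusted p = 2.53e-08). Nop10, a small H/ACA protein, was at 22, 21.3 and 18.1 CPM in WT and at 18.7, 13.3 and 17.9 CPM in MycKO libraries, where the groups overlapped and the value of -0.29 was not called (adjusted p = 0.112), except with library totals (-0.39, adjusted p = 0.0394). Some counts of this role are uncertain, since 72.0% of the 50-base stretches of the Fbl transcript and 30.6% of those of Nop56 also occur in transcripts of other genes.

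Small subunit factors moved least, with a median log2 fold change of -0.35 in MycKO cells, while the medians of the other roles lay between -0.56 and -0.75. Wdr43, a component of the small subunit processome, was at 98.7, 97.6 and 98.4 CPM in WT and at 54.4, 63.4 and 55.5 CPM in MycKO libraries. The WT libraries lay close together and well above the MycKO libraries (-0.76, SE 0.0744, adjusted p = 6.45e-07, limma). Dcaf13, another processome component, was at 45.1, 40.5 and 42.5 CPM in WT and at 36.7, 41.4 and 35.9 CPM in MycKO libraries, with overlap, and its value of -0.17 was not called (adjusted p = 0.0980), except with library totals (-0.27, adjusted p = 0.00902) or without MycKO library 2 (-0.23, adjusted p = 0.0196). The others of this role that were not called were Rrp9 (-0.23, adjusted p = 0.129), Nob1 (-0.27, adjusted p = 0.0646) and Imp3 (-0.18, adjusted p = 0.178).

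In the large subunit group Rrp1b and Surf6 marked the ends. Rrp1b, a factor of the early large subunit precursor, was at 35.3, 40.5 and 34.2 CPM in WT and at 17.7, 21.9 and 19.4 CPM in MycKO libraries. The groups did not overlap (-0.87, SE 0.0995, adjusted p = 3.27e-06, limma). Surf6, a nucleolar matrix protein, was at 22.5, 24.2 and 19.9 CPM in WT and at 22.4, 17.8 and 23.6 CPM in MycKO libraries. These ranges coincided, and its value of -0.06 (adjusted p = 0.678) was the smallest of the 54. Grwd1, a WD-repeat protein of large subunit precursors whose promoter window holds CACGTG near the start, was at 31.6, 34.6 and 28.4 CPM in WT and at 18, 18 and 16.2 CPM in MycKO libraries, and fell without overlap (-0.82, adjusted p = 1.60e-06).

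The 5 general nucleolar genes were all called lower, and 4 of them, Ncl, Npm1, Mybbp1a and Ddx21, had the highest CPM of the 54 in primary WT, while Lyar was at 34.1 CPM on average. Npm1, the nucleophosmin chaperone, was at 675.0, 667.6 and 595.1 CPM in WT and at 358.7, 359.6 and 334.0 CPM in MycKO libraries. The fall of -0.88 (SE 0.0657, adjusted p = 3.95e-08, limma) was the largest of this role, although 40.1% of the 50-base stretches of Npm1 also occur in other genes. Ddx21, an RNA helicase that links Pol I transcription to processing, had the smallest fall of the role (-0.70, adjusted p = 7.66e-08), from 230.8, 236.9 and 222.8 CPM in WT to 138.1, 147.7 and 138.9 CPM in MycKO libraries. In this role every MycKO library lay under every WT library for both of these genes.

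Loss of Mlx alone moved few members past the threshold. In primary MlxKO cells 5 of the 54 members were called lower and 0 higher, where 5.14% of all genes tested were called lower and 3.75% higher. The median log2 fold change of the members was -0.09, and the median member stood at 93.7% of WT. Values below 0 were found for 47 members, and at an unadjusted p under 0.05 (limma) 13 were lower and 2 higher. The 5 called genes were Nhp2, Gar1, Nop10 and Nolc1 of the snoRNP role and Mrto4 of the large subunit role. Nhp2, an H/ACA protein, was at 46.7, 48.4 and 30.6 CPM in WT and at 29.9, 25 and 29.7 CPM in MlxKO libraries, so 1 WT library lay close to the MlxKO libraries (-0.53, SE 0.159, adjusted p = 0.0465, limma). Gar1, a further H/ACA protein, was at 19.0, 18.1 and 16.1 CPM in WT and at 13.1, 10.6 and 12.7 CPM in MlxKO libraries. Its groups did not overlap (-0.52, adjusted p = 0.0345). Nop10 was at 16.2, 11.3 and 15.6 CPM in MlxKO libraries, below the WT values given above (-0.49, adjusted p = 0.0413). Nolc1, the chaperone of snoRNPs, fell by 0.32 on the log2 scale (adjusted p = 0.0210, limma). Mrto4, which prepares the stalk of the large subunit, fell by 0.33 (adjusted p = 0.0182), although 25.7% of its 50-base stretches also occur in other genes. These calls were close to the threshold: leaving out a single library changed their number to between 0 and 6, and it was 0 without WT library 1 or without MlxKO library 2.

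Loss of both genes gave the lowest levels. In primary DKO cells 52 of the 54 members were called lower than in WT and 0 higher, where 25.5% of all genes tested were called lower and 24% higher. The median log2 fold change was -0.80, the median member stood at 56.5% of WT, and 17 members were below 50%. DKO had the lowest mean of the 4 genotypes for 53 members, the exception being Rrp1b, whose mean was lowest in MycKO. Dkc1 was at 12.7, 13.2 and 13.1 CPM in DKO libraries, at 26.8% of WT, the lowest share of the 54 (-1.82, adjusted p = 3.80e-10, limma). Lyar, a nucleolar zinc finger protein, was at 31.4, 38.6 and 32.4 CPM in WT and at 14.2, 15.0 and 11.8 CPM in DKO libraries. This was a clear separation (-1.26, adjusted p = 1.13e-07). Grwd1 was at 12.7, 12.6 and 12.7 CPM in DKO libraries, again far under WT (-1.25, adjusted p = 1.27e-08). Ubtf, Rrp9, Dcaf13 and Nob1 were called lower in DKO and in neither single knockout, while Imp3 (-0.24, adjusted p = 0.0708) and Surf6 (-0.14, adjusted p = 0.321) were not called in any primary knockout.

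**Figure D2:**
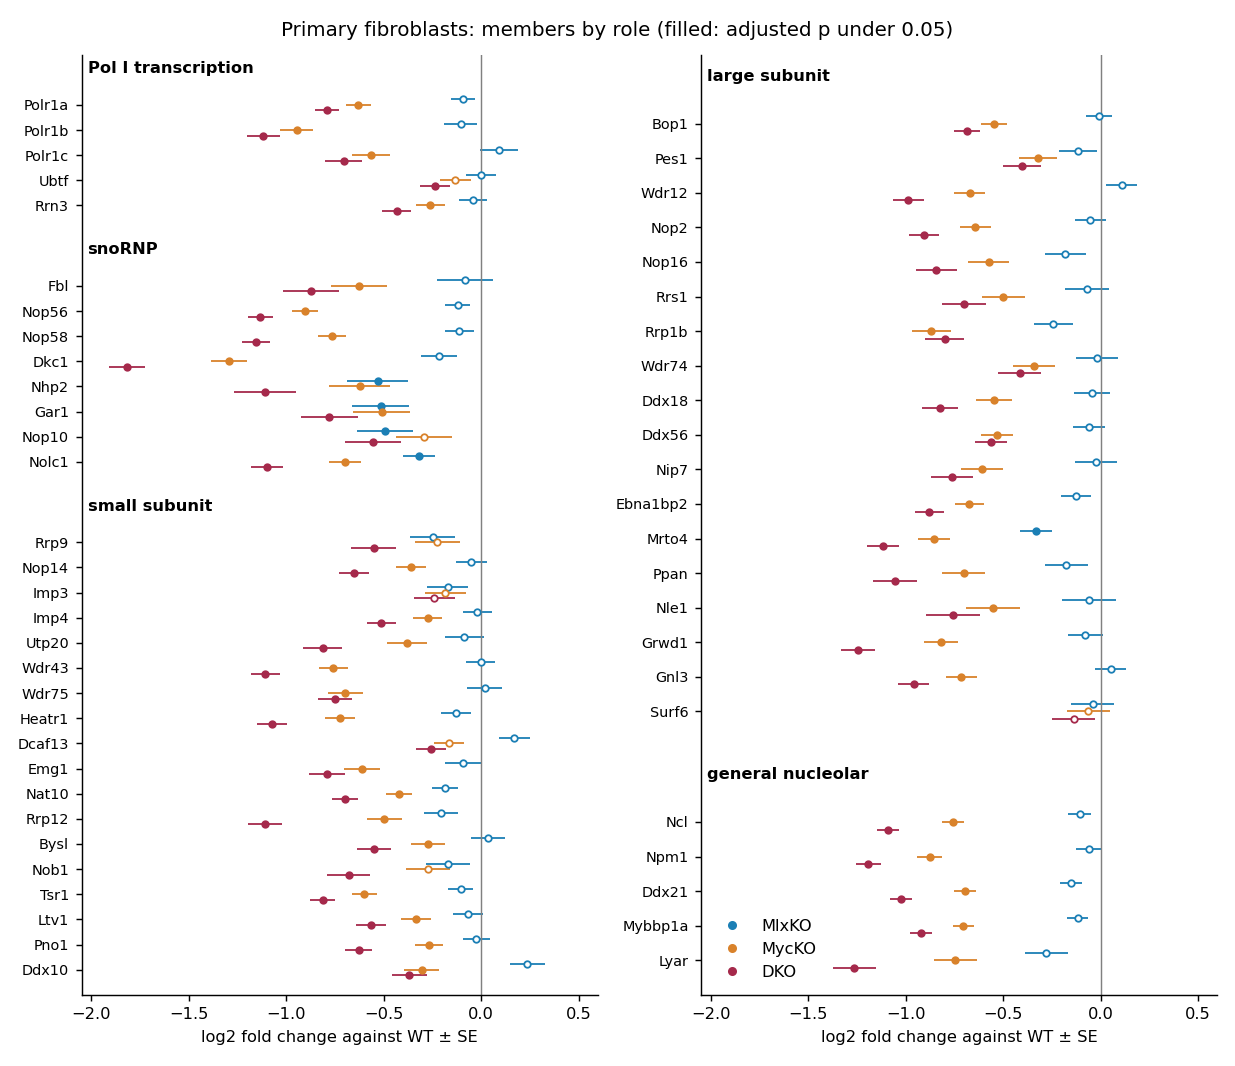
Log2 fold change against WT with its standard error (horizontal axis) for each of the 54 members by role (vertical axis) in primary MlxKO, MycKO and DKO cells, with filled symbols for genes called at an adjusted p under 0.05. Most genes run from MlxKO near 0 through MycKO to DKO at the left, with Dkc1 at -1.82 in DKO and Surf6 near 0 in all 3.

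DKO cells were then compared with the single knockouts. Against MycKO, 29 of the 54 members were called lower in DKO and 0 higher, where 11% of all genes were called lower and 10.6% higher, and 28 of these 29 had also been called lower in MycKO against WT. By role these were 0 of 5 Pol I, 5 of 8 snoRNP, 12 of 18 small subunit, 7 of 18 large subunit and 5 of 5 general nucleolar genes. Leaving out DKO library 1 or DKO library 2 reduced the count to 19. Rrp12, an export factor of the pre-ribosomal particles, was at 26.5, 29.2 and 28.7 CPM in MycKO and at 17.4, 19.0 and 17.8 CPM in DKO libraries. This was the largest further fall (-0.61, SE 0.0878, adjusted p = 7.93e-05, limma), with Dkc1 (-0.52, adjusted p = 0.000594) and Lyar (-0.52, adjusted p = 0.00257) next. Rrp1b was the only member with a value above 0 (0.07, adjusted p = 0.690). Against MlxKO, 50 members were called lower in DKO and 0 higher, where 25.9% of all genes were called lower and 23.3% higher, with a median member log2 fold change of -0.70.

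Whether the joint loss exceeded the sum of the single losses was asked with the interaction on the log2 scale (DKO minus MycKO minus MlxKO plus WT). It was called below 0 for 4 members and above 0 for 0, where 6.07% of all genes were called below and 7.47% above. The 4 were Wdr12 (-0.42, SE 0.112, adjusted p = 0.0167, limma), Rrp12 (-0.41, adjusted p = 0.0382), Wdr43 (-0.35, adjusted p = 0.0370) and Pno1 (-0.33, adjusted p = 0.0330). Wdr12, a member of the PeBoW complex with Pes1 and Bop1, was at 42.8, 42.5 and 43.8 CPM in WT and at 43.9, 48.0 and 47.6 CPM in MlxKO libraries. It was at 25.3, 29.6 and 25.3 CPM in MycKO and at 21.1, 22.3 and 20.3 CPM in DKO libraries, so MlxKO lay above WT and DKO below MycKO. Pno1, a late small subunit factor, was at 54.3, 54.5 and 55.8 CPM in WT and at 53.1, 53.8 and 54.9 CPM in MlxKO libraries. Its MycKO libraries, at 48.3, 46.5 and 41.6 CPM, were nearer to WT than its DKO libraries, at 36.4, 35.7 and 33.4 CPM. The share of members called here was close to the background, and leaving out single libraries moved the count between 0 and 6, with 0 without DKO library 3.

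Markers of proliferation and of other cell types also differed between the primary genotypes. Of their summed levels, only that of the proliferation genes fell in the order of the members, from WT through MlxKO and MycKO to DKO. Of 10 proliferation genes, all 10 were called lower in each primary knockout, and their summed level ran from 1219 to 1278 CPM in WT, from 978 to 1028 CPM in MlxKO, from 701 to 843 CPM in MycKO and from 572 to 598 CPM in DKO libraries. Of 8 macrophage markers, all 8 were called lower in MycKO and in DKO, with sums of 274 to 524 CPM in WT, 301 to 371 CPM in MlxKO, 47.7 to 70.0 CPM in MycKO and 94.3 to 219 CPM in DKO libraries. Epithelial markers summed to 16.1 to 19.3 CPM in WT and to at most 4.42 CPM in the knockouts, with Krt5 at 0 in every WT library. Endothelial markers summed to 13.9 to 15.5 CPM in WT and to between 3.52 and 8.83 CPM in the knockouts, but of the 2 that were tested only Kdr was called lower in all 3 knockouts, while Tek was called higher in DKO (0.78, adjusted p = 0.00419, limma). Of 9 fibroblast markers, 8 were called higher and 0 lower in MycKO, 7 higher and 1 lower in DKO, and 2 higher and 1 lower in MlxKO, with Dcn, a matrix proteoglycan, at 1.08 in MycKO and 1.27 in DKO on the log2 scale. The part of these in the member results was not tested. In bulk RNA, fewer cells of a type and less RNA per cell cannot be told apart.

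Ribosome biogenesis genes outside the 54 were taken from a fixed list of 122, of which 121 were found in the tables. In primary MycKO cells 81 of the 119 tested were called lower and 1 higher, with a median log2 fold change of -0.33. Lower were 6 of 15 other Pol I genes, 5 of 8 other snoRNP factors, 28 of 37 other small subunit factors, 28 of 40 other large subunit factors and 14 of 19 genes of the exosome and RNase MRP. Taf1d, a subunit of the Pol I selectivity factor, went from 77.1 ± 2.60 CPM in WT to 41.5 ± 4.38 CPM in MycKO (SD, n = 3), a log2 fold change of -0.88 in the limma fit (adjusted p = 2.65e-07). Pop1, a protein of RNase MRP, had a log2 fold change of -0.79 in the same comparison (adjusted p = 4.90e-07). Sbds, which releases Eif6 from the large subunit late in the cytoplasm, was the only gene called higher (0.21, adjusted p = 0.0406). In DKO 99 of these genes were called lower and 1 higher, again Sbds (0.32, adjusted p = 0.00293), while in MlxKO 0 were called by limma and by edgeR and 2 by DESeq2, and 10 were lower and 0 higher at an unadjusted p under 0.05.

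Members were also alike in their course over the 12 primary libraries. Pearson's r of a member with the mean of the other members was highest for Ncl (0.997) and Dkc1 (0.996). It was lowest for Surf6 (0.44), Nop10 (0.51) and Imp3 (0.54). Outside the members and the list of other pathway genes, the genes with the closest course to the mean of the members were Il1rl1 (0.995), Pa2g4 (0.995), AI506816 (0.995), G3bp1 (0.994) and Mcm7 (0.994), out of 12928 genes ranked. These libraries share genotype groups, so r is a description only.

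In immortalized cells members were called in both directions after loss of Myc, as were all genes. In immortalized MycKO cells 22 members were called lower than in WT and 6 higher, where 23.5% of the 12880 genes tested were called lower and 24.4% higher. With WT library 3 left out, the counts were 18 lower and 10 higher, where 26.7% and 27.3% of all genes were called. Taking both directions together, 51.9% of the members were called against 48% of all genes, or 51.9% against 54% without that library. The share of members called in either direction was thus near the background, but its make-up was not. With and without that library, falls were more frequent and rises rarer among the members than over all genes. The median member log2 fold change was -0.31 with and -0.0996 without that library. By role 2 of 5 Pol I, 3 of 8 snoRNP, 7 of 18 small subunit, 6 of 18 large subunit and 4 of 5 general nucleolar genes were called lower (2, 2, 6, 4 and 4 in the same order without WT library 3), and the 6 called higher were Fbl, Nhp2, Rrp9, Nob1, Wdr74 and Surf6.

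With all libraries, Dkc1 was again the member with the largest fall. It was at 49.1, 41.3 and 93.4 CPM in immortalized WT and at 25.8, 24.3 and 28.5 CPM in MycKO libraries, without overlap (-1.11, adjusted p = 0.00208, limma), and the log2 fold change was -0.76 without WT library 3 (adjusted p = 0.000271). Gnl3, the nucleostemin GTPase, was at 101.4, 83.8 and 155.4 CPM in WT and at 59.4, 50.4 and 47.1 CPM in MycKO libraries. Every MycKO library was lower (-1.06, adjusted p = 0.000606, limma, and -0.81 without WT library 3). On leaving out that library, Gnl3 thus fell further than Dkc1. Wdr43 was at 112.1, 94.8 and 185.0 CPM in WT and at 59.0, 60.9 and 64.2 CPM in MycKO libraries, also without overlap (-1.02, adjusted p = 0.00115, and -0.74 without WT library 3).

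Of the 6 genes called higher in immortalized MycKO, all but Fbl (43.2 CPM) had WT means between 14.1 and 20.8 CPM. Rrp9, the U3 snoRNP protein of the small subunit processome, was at 13.3, 15.5 and 31.8 CPM in WT and at 35.3, 32.8 and 33.1 CPM in MycKO libraries. WT library 3 nearly reached the MycKO libraries, and the log2 fold change was 0.81 with it (adjusted p = 0.0220, limma) and 1.18 without it. Surf6 was at 12.2, 13.2 and 17.0 CPM in WT and at 24.5, 27.3 and 21.3 CPM in MycKO libraries, with no overlap (0.75, adjusted p = 0.00368, and 0.88 without WT library 3). Nhp2 was at 15.1, 20.9 and 25.4 CPM in WT and at 45.2, 26.8 and 26.0 CPM in MycKO libraries. A single MycKO library was far above the others, and the value of 0.63 (adjusted p = 0.0422) was 0.38 without it (adjusted p = 0.173). Rrp9 also missed the threshold without MycKO library 1 (adjusted p = 0.0588).

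More genes were called after loss of Mlx in immortalized than in primary cells, over all genes (38.9% against 8.88%) as among the members (29.6% against 9.26%). In immortalized MlxKO cells 5 members were called lower than in WT and 11 higher, where 19.9% of all genes were called lower and 19.1% higher. Without WT library 3 the counts were 1 lower and 29 higher, where 23.8% and 23.1% of all genes were called, so this single library set much of the count. The median member log2 fold change was 0.17 with and 0.38 without it. Dividing each library by its own total moved the median of all genes up by 0.15 and gave 0 members lower and 18 higher, with the members 0.18 above the median of all genes. Over all genes, 1583 were then called lower and 3685 higher. Nhp2 was at 35.6, 50.5 and 47.7 CPM in MlxKO libraries, all above the WT values given above (1.10, SE 0.236, adjusted p = 0.00394, limma, and 1.27 without WT library 3). Gar1 was at 6.09, 7.27 and 9.31 CPM in WT and at 13.6, 17.4 and 16.3 CPM in MlxKO libraries, without overlap (0.98, adjusted p = 0.000921, and 1.12 without WT library 3). Rrp9 was at 30.3, 46.5 and 44.0 CPM in MlxKO libraries, where WT library 3 overlapped with the lowest of them (1.04, adjusted p = 0.00887, and 1.40 without that library). Nhp2 and Gar1 had both been called lower in primary MlxKO cells.

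Falls in immortalized MlxKO were led by Wdr12, Nop58 and Pno1. Wdr12 was at 42.0, 37.6 and 71.9 CPM in WT and at 34.8, 29.3 and 28.3 CPM in MlxKO libraries (-0.64, adjusted p = 0.0304, limma). The groups did not overlap, but without WT library 3 the value was -0.36 and was not called (adjusted p = 0.0613). Nop58, the partner of Nop56 in box C/D particles, was at 143.5, 119.1 and 222.4 CPM in WT and at 114.2, 100.4 and 102.4 CPM in MlxKO libraries (-0.56, adjusted p = 0.0260), and it stayed called without WT library 3 (-0.31, adjusted p = 0.0367). Pno1 was at 58.5, 58.4 and 90.0 CPM in WT and at 49.7, 43.2 and 47.4 CPM in MlxKO libraries (-0.52, adjusted p = 0.0482), and was not called without WT library 3 (-0.32, adjusted p = 0.129).

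In immortalized DKO cells 15 members were called lower than in WT and 0 higher, where 8.51% of all genes were called lower and 10.4% higher. On leaving out WT library 3 there were 10 lower and 0 higher, where 10.1% and 12.0% of all genes were called. Median member log2 fold changes were -0.40 and -0.17, respectively. The count also depended on other choices, being 25 without WT library 2, 5 without DKO library 1 or 3, 2 with only the groups compared and 24 by DESeq2. Wdr43 was at 54.2, 62.1 and 64.1 CPM in DKO libraries, all below WT (-1.05, adjusted p = 0.00355, limma, and -0.77 without WT library 3). Gnl3 was at 55.2, 55.7 and 58.1 CPM in DKO libraries, again without overlap (-0.95, adjusted p = 0.00462, and -0.70 without WT library 3). Tsr1, a GTPase-like factor of the late small subunit, was at 71.2, 66.9 and 139.1 CPM in WT and at 42.7, 46.4 and 46.3 CPM in DKO libraries, where no DKO library reached WT (-0.94, adjusted p = 0.0112, and -0.60 without WT library 3).

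**Figure D3:**
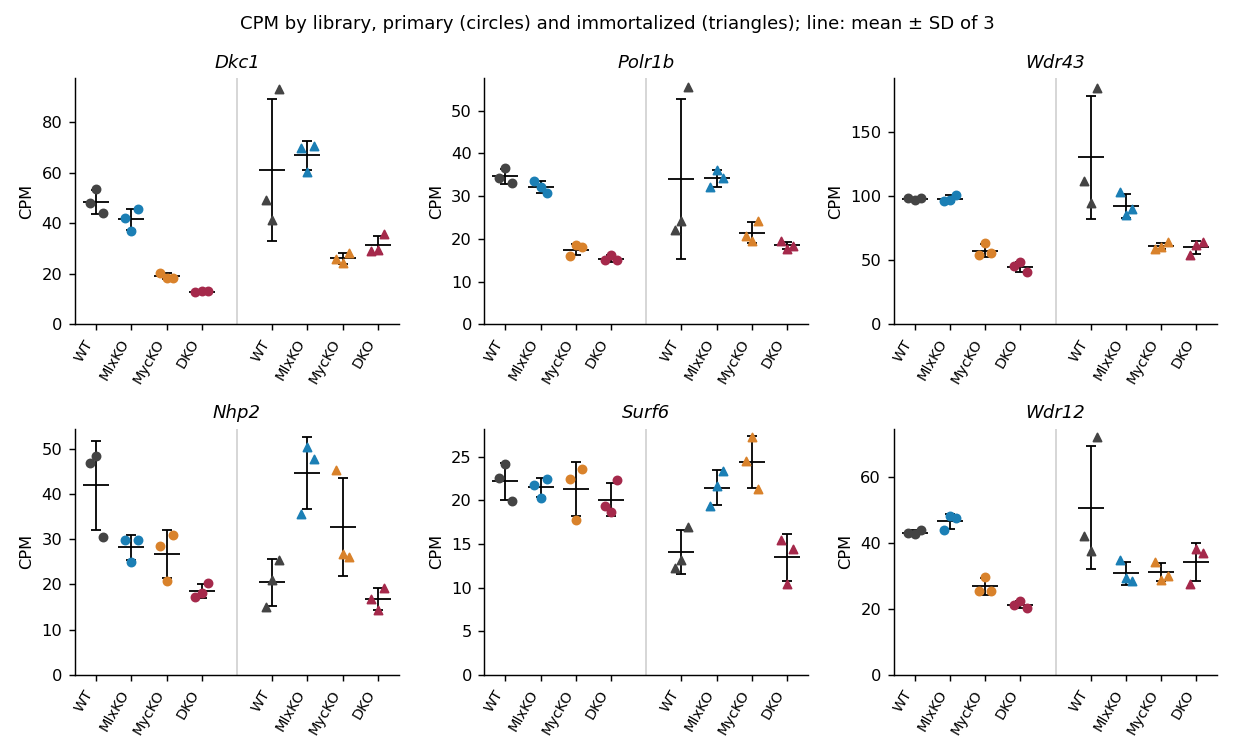
CPM of Dkc1, Polr1b, Wdr43, Nhp2, Surf6 and Wdr12 (vertical axis) in each library by genotype (horizontal axis), with circles for primary and triangles for immortalized cells and lines for the mean ± SD of 3 libraries. Immortalized WT library 3 stands above the other WT libraries, for example at 93.4 CPM of Dkc1 against 49.1 and 41.3 CPM, while Nhp2 and Surf6 reach 50.5 and 27.3 CPM in immortalized MlxKO and MycKO.

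Immortalized DKO cells differed far more from MlxKO than from MycKO cells in the number of members called. Against MlxKO, 31 members were called lower in DKO and 0 higher, where 13.9% of all genes were called lower and 16.3% higher, and the median member log2 fold change was -0.61. This comparison holds no WT library, but WT library 3 enters the common estimate of the spread, and without it 42 were called lower and 0 higher, where 20.6% and 22.6% of all genes were called. The largest were Nhp2 (-1.36, adjusted p = 0.00138, limma), Ppan, a factor of large subunit rRNA processing (-1.20, adjusted p = 0.000500), and Nolc1 (-1.15, adjusted p = 0.00113). Nolc1 was at 126.2, 128.9 and 125.3 CPM in MlxKO and at 60.3, 54.2 and 55.0 CPM in DKO libraries. Against MycKO, Fbl, Nhp2 and Surf6 were called lower in DKO, 3 members, and 0 were called higher, where 14.6% of all genes were called lower and 14.8% higher. These counts were, without WT library 3, 14 and 1, where 20.5% of all genes were called lower and 20.5% higher. Fbl, the box C/D methyltransferase, was at 59.7, 62.2 and 59.5 CPM in MycKO and at 44.5, 36.1 and 41.0 CPM in DKO libraries (-0.57, adjusted p = 0.00379).

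The interaction in immortalized cells was called for 15 members. It was below 0 for 11 and above 0 for 4, where 23.8% and 23.7% of all genes were called. With all libraries the share was thus no larger than the background in either direction. Without WT library 3 it was 25 below and 3 above, where 28.7% and 28.1% of all genes were called, so the share below 0 was then over the background. Library totals, which moved the median of all genes by -0.16, gave 20 members below and 2 above. Over all genes, 3927 were then called below and 2322 above. Nhp2 (-1.99, adjusted p = 0.000564, limma), Rrp9 (-1.72, adjusted p = 0.00254) and Fbl (-1.49, adjusted p = 4.54e-05) had the lowest values. Fbl was at 40.1, 46.8 and 42.7 CPM in WT and at 71.8, 82.9 and 95.0 CPM in MlxKO libraries. With the MycKO and DKO values given above, each single loss went with a higher level of Fbl, and the DKO libraries lay around those of WT. Nop58 (0.91, adjusted p = 0.0104), Pno1 (0.73, adjusted p = 0.0429) and Ltv1, a small subunit export adaptor (0.71, adjusted p = 0.0275), had the highest values among the members called, and Pno1 was not called without WT library 3 (0.53, adjusted p = 0.0559). Ltv1 was at 43.1, 41.6 and 65.7 CPM in WT, at 37.7, 30.9 and 37.4 CPM in MlxKO, at 36.2, 30.1 and 31.4 CPM in MycKO and at 34.5, 42.0 and 39.8 CPM in DKO libraries, so the DKO libraries lay partly above both single knockouts.

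The effect of each loss was compared between the states by subtracting the primary from the immortalized log2 fold change, each taken within its own table. For MycKO the difference was called above 0 for 13 members and below 0 for 0, where 21.4% of the 12402 genes tested in both were called above and 18.2% below. Without immortalized WT library 3 it was above 0 for 29 and below 0 for 0, where 26.7% and 22.8% of all genes were called. The largest were Nhp2 (1.26, adjusted p = 0.00303, limma), Fbl (1.11, adjusted p = 0.000278) and Rrp9 (1.04, adjusted p = 0.00995). Lowest were Gnl3 (-0.35, adjusted p = 0.190), Tsr1 (-0.31, adjusted p = 0.304) and Wdr43 (-0.26, adjusted p = 0.352), none of them called, and without WT library 3 the values of Tsr1 and Wdr43 turned to 0.03 and 0.02. Called lower in MycKO in both states were 21 members and 7.18% of all genes, or 17 members and 6.93% of all genes without WT library 3. Fbl, Nhp2 and Wdr74 were lower in primary and higher in immortalized MycKO cells, as were 2.5% of all genes. With WT library 3 left out, Gar1, Nop2, Nop16 and Nip7 joined these, to 7 members, beside 3.78% of all genes.

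**Figure D4:**
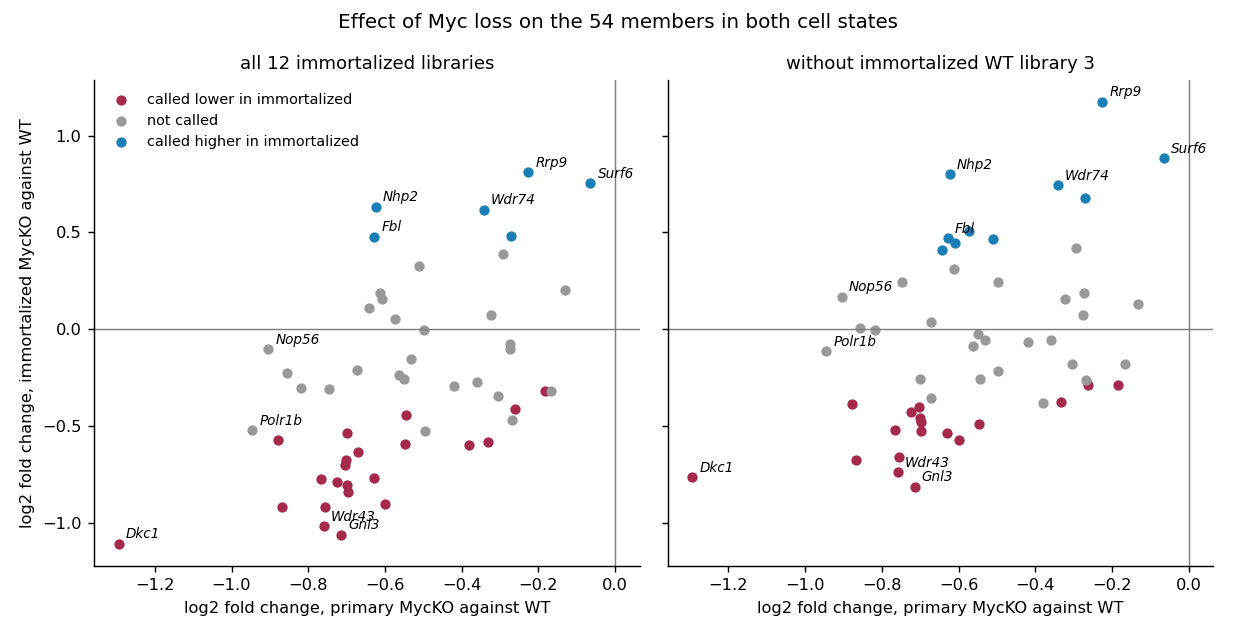
Log2 fold change of MycKO against WT for the 54 members in primary (horizontal axis) and immortalized cells (vertical axis), with all 12 immortalized libraries at the left and without immortalized WT library 3 at the right. All points lie left of 0, with Dkc1 lowest on both axes at the left (-1.29 and -1.11), and the members called higher in immortalized cells number 6 at the left and 10 at the right.

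For MlxKO the difference was called above 0 for 12 members and below 0 for 2, Wdr12 and Dcaf13, where 18.2% of all genes were called above and 20.3% below. Without WT library 3 it was above 0 for 31 and below 0 for 2, where 22.5% and 24.2% of all genes were called. Nhp2 (1.63, adjusted p = 0.000473, limma) and Gar1 (1.5, adjusted p = 4.64e-05) led, and Wdr12 had the lowest value (-0.75, adjusted p = 0.0149). For DKO it was above 0 for 8 members and below 0 for 0, where 11.4% of all genes were called above and 9.79% below, with Dkc1 (0.96, adjusted p = 0.0111) and Fbl (0.78, adjusted p = 0.00927) among the 8. Without WT library 3 it was above 0 for 39, where 17.3% of all genes were called above and 14.9% below, the largest shift of any count with that library. Members called lower in both MycKO and DKO in both states numbered 14, beside 2.28% of all genes. After omission of WT library 3 they numbered 10, beside 1.95% of all genes, namely Dkc1, Wdr43, Heatr1, Tsr1, Rrp1b, Ppan, Gnl3, Ncl, Ddx21 and Mybbp1a. Ncl, the nucleolin that binds precursor rRNA, is the most abundant of these, at 675.6, 714.3 and 625.7 CPM in primary WT and at 319.3, 308.1 and 315.7 CPM in primary DKO libraries.

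The immortalized MlxKO and MycKO changes went with both the base composition and the length of the transcript. Across the 54 members, which are not independent replicates and share their libraries, Pearson's r between the MlxKO log2 fold change and transcript GC content was 0.72 in immortalized and -0.28 in primary cells, and over all genes tested it was 0.49 and -0.07. The 11 members called higher in immortalized MlxKO had a median GC content of 55.1%, the 5 called lower 42.8% and the remaining 38 49.9%. With WT library 3 left out, the 29 called higher had a median of 53.9%, the 24 not called 46.7% and the single member called lower 41.1%, and r was 0.68 over the members and 0.41 over all genes. For immortalized MycKO r was 0.49 over the members, against 0.16 in primary MycKO. With log2 transcript length, r over the members was -0.45 in immortalized MlxKO and -0.55 in immortalized MycKO, against 0.23 and -0.22 in primary cells. For immortalized DKO r was 0.30 with GC content and -0.43 with log2 length. Separate parts of GC content and length were not tested. With a correction for GC content and length over all genes, a setting chosen after the data were seen and fitted with all libraries, 7 members were called higher and 1 lower in immortalized MlxKO. Of the 12880 genes tested, 1579 were then called higher and 1779 lower, so the rises among the members were near the background. Nhp2 (0.77, adjusted p = 0.00754, limma) and Gar1 (0.53, adjusted p = 0.0226) were still called, whereas Rrp9 (0.52, adjusted p = 0.159), Wdr12 (-0.07), Nop58 (-0.02) and Pno1 (-0.24) were not. In immortalized MycKO the same correction left Rrp9 (0.35, adjusted p = 0.295) and Nhp2 (0.32, adjusted p = 0.145) without a call, while Surf6 (0.63), Dkc1 (-0.79), Gnl3 (-1.03) and Wdr43 (-0.80) kept theirs.

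**Figure D5:**
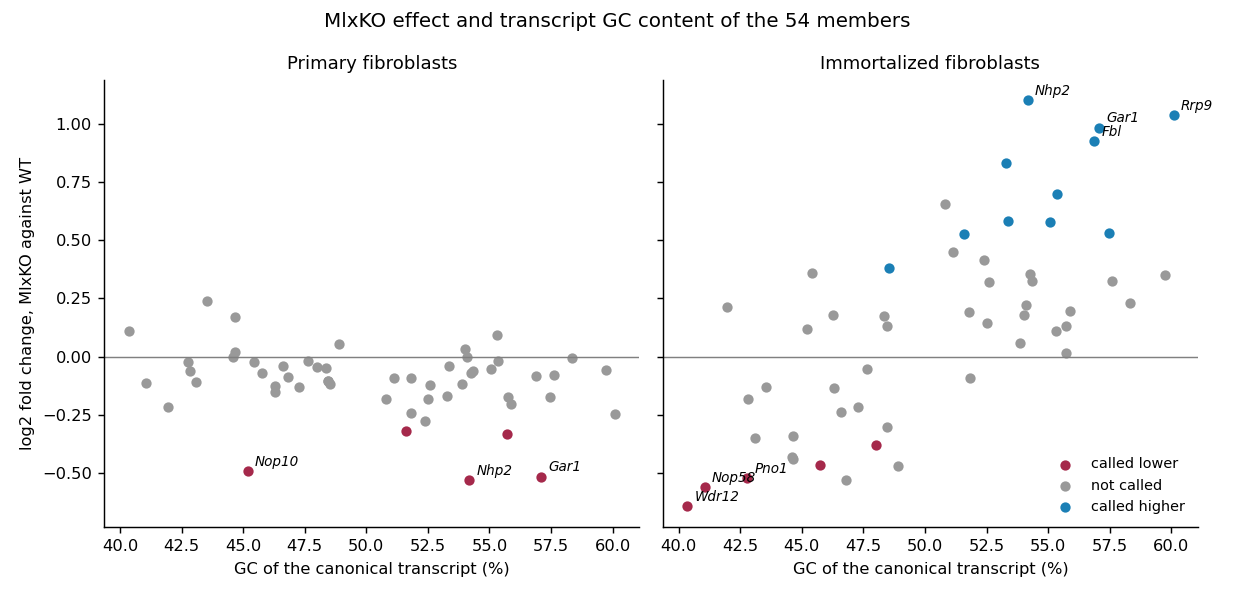
Log2 fold change of MlxKO against WT (vertical axis) and GC content of the canonical transcript in percent (horizontal axis) for the 54 members in primary (left) and immortalized cells (right), coloured by call. In immortalized cells the members called higher lie to the right at a median GC of 55.1% and those called lower to the left at 42.8% (r 0.72), while in primary cells r is -0.28.

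Markers were examined in immortalized cells as well. Of the 10 proliferation genes, 2 were called lower and 1 higher in immortalized MlxKO and 0 in MycKO and DKO by limma and by edgeR. DESeq2 called 1 in MycKO and 0 in DKO, and at an unadjusted p under 0.05 limma gave 1 in MycKO and 0 in DKO. Without WT library 3 limma called 1 lower and 2 higher in MycKO and 1 lower in DKO. Macrophage markers summed to at most 5.8 CPM, with Adgre1 and Tyrobp at 0 in every library. The fibroblast markers summed to between 25570 and 33700 CPM in WT, 18470 and 22710 CPM in MlxKO, 18010 and 24220 CPM in MycKO and 26710 and 34560 CPM in DKO libraries, with 1, 2 and 1 of 9 called lower and 2, 2 and 1 called higher in MlxKO, MycKO and DKO. The endothelial markers summed to 3.10 to 5.05 CPM in WT and to 14.4 to 19.1 CPM in MycKO libraries, where Kdr was called higher (2.21, adjusted p = 1.05e-06, limma). The part of these in the member results was not tested. Among the pathway genes outside the 54, 25 of 120 tested were called lower and 14 higher in immortalized MycKO, 6 lower and 26 higher in MlxKO, and 18 lower and 1 higher in DKO. Without WT library 3 these counts were 18 and 23, 3 and 43, and 12 and 1. Set against the shares of all genes given above, the MycKO counts and the rises in MlxKO with all libraries were near or under the background.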

How the data were processed

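RNA from triplicate cultures was poly-A selected and made into directional libraries, which the authors aligned in CLC Genomics Workbench 22 against GRCm39. Gene-level signal was deposited by the authors as CPM, with a scaling between libraries that is not given in the sources used here, since the values of a library summed to between 915691 and 1077213. Within a tolerance of 0.02 read, 100% of the deposited values were whole multiples of the value of a single read, from which reads and depth were recovered. All columns were used. Each column was given to a group by the genotype in its name and the state of its table. Libraries are numbered 1 to 3 within a group by the library numbers of the columns, which are not the replicate numbers of the labels.

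Values were fitted as log2(CPM + 1) with limma 3.58.1 (R 4.3.3). All 4 genotypes of a state entered 1 model, and the prior of the variance followed the mean level. A gene was tested if 3 or more libraries of a state reached 1 CPM (13101 in primary and 12880 in immortalized cells, 12402 in both), in 2-sided tests with Benjamini-Hochberg adjustment over all of them and a threshold of 0.05. With 3 libraries against 3, an exact permutation test of a single gene cannot go below p = 0.10, so none was made. Fold changes on this scale understate the change of low genes.

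The 54 genes, their 5 role lists, the other pathway genes and the markers were chosen with earlier results of these data known. The genes named with the value in every library were, by rule, Myc and Mlx, the 3 largest called falls and rises in each knockout, the members with the largest and smallest change of each role in primary MycKO, the interaction calls (at most 3 in each direction where over 6 were called), and the 3 largest differences in each direction of the MycKO effect between states. Fbl in DKO against MycKO, Nolc1, Ncl and the second and following examples of other comparisons were named after their values were seen.

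Alternatives were a pseudocount of 0.1, no filter, a mean of at least 5 CPM, median-ratio scaling, library totals, only the groups compared, a robust prior, count models in edgeR 4.0.16 and in DESeq2 1.42.0 fitted to the recovered reads, the calls shared by all 3 tools, a minimum absolute log2 fold change of 1 and omission of each library in turn. Adjustment of each fit for the GC content and length of transcripts was chosen after the data were seen. The fits were tested on simulated data. Shared 50-base stretches and gene overlaps come from GENCODE vM39, on which all 54 members were found, and promoter windows from RefSeq, GRCm38.p6. Plots were made in Python 3.11.15 (matplotlib 3.10.9).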

Additional observations from a re-analysis of the deposited data

Results flagged for a closer look

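By a test of the difference itself, the effects of losing one gene differed between cells with and without the other for 4 members in primary cells, namely Wdr43 (-0.35), Rrp12 (-0.41), Pno1 (-0.33) and Wdr12 (-0.42), each as the interaction on the log2 scale, which is 7.41% of the members against 13.5% of all genes. In immortalized cells the same test called 15 members, 27.8% of the 54 against 47.4% of all genes, with Fbl at -1.49, Nhp2 at -1.99 and Rrp9 at -1.72 lowest and Nop58 at 0.91, Ltv1 at 0.71 and Pno1 at 0.73 highest. The effect of a loss differed between the immortalized and the primary state, tested as the difference of the log2 fold changes, for 13 members in MycKO, for 14 in MlxKO and for 8 in DKO. These are 24.1%, 25.9% and 14.8% of the members, below the 39.7%, 38.5% and 21.2% of all genes called in either direction. Differences above 0 alone were called for 13, 12 and 8 of the 54, where 21.4%, 18.2% and 11.4% of all genes were. By that count the members were near or slightly over the background. Differences below 0 were called for 0, 2 and 0 members, where 18.2%, 20.3% and 9.79% of all genes were. Nhp2 (1.26), Fbl (1.11) and Rrp9 (1.04) had the largest differences in MycKO. All of these counts but that of primary cells move strongly when immortalized WT library 3 is left out, as given above. The differences between states were then called for 53.7%, 61.1% and 72.2% of the members, now above the 49.5%, 46.7% and 32.1% of all genes. For the immortalized interaction the shares were then 51.9% of the members and 56.7% of all genes. By direction, 25 members lay below 0 and 3 above, where 28.7% and 28.1% of all genes were called.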

How the results depend on the processing

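No count of members turned from mostly lower to mostly higher or back under the alternatives run. With pseudocount 0.1, a mean of at least 5 CPM, median-ratio scaling, a robust prior, edgeR, or the calls shared by the 3 tools, all 15 counts stayed within 1.5 times. A minimum absolute log2 fold change of 1 moved all 15: in primary cells to 1 (MycKO), 0 (MlxKO), 16 (DKO), 0 in DKO against MycKO, 9 in DKO against MlxKO and 0 in the interaction, in immortalized cells to 3, 2, 1, 0, 8 and 9 in that order, and for the differences between states to 3 (MycKO), 5 (MlxKO) and 0 (DKO). With no filter on low values the counts became 2 in primary MlxKO, 2 in the primary interaction and 10 in immortalized MlxKO. With library totals they became 3 in primary MlxKO and 19 in the DKO difference. With only the groups compared they became 13 in immortalized MycKO, 6 in MlxKO, 2 in DKO and 10 in DKO against MycKO, and 8 and 4 in the MycKO and DKO differences. DESeq2 gave 24 in immortalized DKO and 5 in DKO against MycKO. The correction for GC content and length gave 9 in the primary interaction, 8 in immortalized MlxKO and 14 in the DKO difference. The cause was not tested.

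Leaving out single libraries gave 0 to 6 calls in primary MlxKO, 19 to 35 in DKO against MycKO and 0 to 6 in the interaction. In immortalized cells it gave 5 to 30 in MlxKO, 5 to 25 in DKO, 2 to 15 in DKO against MycKO, 14 to 42 in DKO against MlxKO and 11 to 28 in the interaction, and for the differences 10 to 29 in MycKO, 10 to 33 in MlxKO and 6 to 39 in DKO. The counts of 47 and 52 in primary MycKO and DKO stayed between 45 and 48 and between 50 and 53. Immortalized DKO gave 25 without WT library 2 and 5 without DKO library 1 or 3, and DKO against MlxKO gave 14 without MlxKO library 2. Values that changed sign were Dcaf13 in primary MycKO with the GC and length correction (0.0223), Surf6 in primary MycKO without MycKO library 2 (-0.14 to 0.0543 over the omitted libraries), and Tsr1 (-0.50 to 0.0270) and Wdr43 (-0.46 to 0.0192) in the MycKO difference without immortalized WT library 3. None of these 4 was called before or after. Library totals moved the median of all genes by more than 0.1 in immortalized MlxKO (0.15), immortalized DKO against MlxKO (-0.16), the immortalized interaction (-0.16), primary DKO against MlxKO (-0.10) and the MycKO (0.10) and MlxKO (0.13) differences. No paired analysis was possible because the numbers in the column names run on across genotypes and those of the labels start anew in each group.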
